A study of Mus musculus with 6 samples.

Results

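Glycolysis breaks glucose down to pyruvate, and much of the pyruvate of a dividing T cell leaves as lactate. The genes described here are the 34 that carry glucose into the cell, run glycolysis, make and export lactate, keep pyruvate out of the mitochondrial oxidation step or start glycogen synthesis, out of 16281 genes with counts. They were chosen by name, not by their values in these samples, although earlier results of the same data were known when the list was written. All 34 had enough reads to be tested, among 11698 genes tested.

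RNA was sequenced from CD8+ T cells of the spleens of OT1 mice, a C57BL/6 line carrying the transgene Tg(TcraTcrb)1100Mjb, so that most T cells bear one T-cell receptor, which recognises an ovalbumin peptide. Every culture received IL-2 and antibodies against CD3 and CD28 for 48 h, followed by 3 days of growth in IL-2 alone. GSK, the inhibitor GSK2879552 of the histone demethylase LSD1, was present at 0.5 μM throughout in 3 samples, and the vehicle alone in the other 3 (Veh). The comparison asks which genes differ in RNA level when LSD1 is inhibited during activation and growth. The samples are bulk cultures activated in vitro, without antigen-presenting or tumour cells, and the age of the mice was not given in the sources used here.

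Naive T cells are quiet and burn little glucose. After activation they raise glucose transporters, hexokinase and lactate dehydrogenase, and turn to fast glycolysis with lactate export even where oxygen is plentiful, a switch in which the transcription factors MYC and HIF-1 are known to take part. Many steps have several isoforms, encoded by separate genes that differ in affinity, regulation and tissue, so the sum of a step and the mixture of its isoforms are separate questions.

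Total counts lay between 18288447 and 18918811 in Veh and between 19149909 and 19846720 in GSK, and every pair of replicates within a group differed by more than sampling noise (chi-square per degree of freedom 3.95 to 9.02). Of 10 T-cell marker genes, all tested, only Cd8a and Cd8b1 mark CD8 cells, and the rest are found in other T cells too. The sum of the 10 was 4580 to 4695 CPM (a gene's counts scaled to the TMM-adjusted total of its sample) in Veh and 4665 to 4842 CPM in GSK. Within it 4 fell (Cd3d, Cd3e, Cd3g and Cd5, log2 changes -0.16 to -0.50) and 3 rose (Cd2, Lck and Thy1, 0.13 to 0.23), while Cd8a, Cd8b1 and Zap70 did not pass (edgeR). Sums for other cells were small: CD4 T-cell markers 43.1 to 52.9 CPM in Veh and 39.2 to 44.8 CPM in GSK, B-cell markers 5.78 to 8.0 and 5.72 to 6.63 CPM, myeloid markers 2.79 to 4.73 and 1.3 to 2.73 CPM, NK-cell markers 1.58 to 2.45 and 2.38 to 4.09 CPM, and red-cell and platelet markers 0.158 to 0.322 and 0.101 to 0.365 CPM. Most of the CD4 sum was Zbtb7b, at 38.2 to 49.4 CPM in Veh and 33.7 to 40.3 CPM in GSK. Cd4 itself was at 0.762 to 1.79 CPM in Veh and 0.472 to 1.72 CPM in GSK. Foxp3 was at 1.68 to 4.24 and 2.76 to 4.99 CPM. Most of the B-cell sum was Cd79b, at 5.52 to 7.56 CPM in Veh and 4.64 to 5.11 CPM in GSK. Adgre1, Mpo and Ncr1, defining markers of macrophages, immature granulocytes and NK cells, had at most 2 reads in any sample. Other markers of the same lists had more, with 19 to 50 reads for Itgam, 2 to 27 for Lyz2 and 29 to 70 for Klrb1c. Of the 7 tested markers of these other cells, 0 passed the test in edgeR and 0 in DESeq2, with 2 lower at an unadjusted p under 0.05. The part of other cells in the results was not tested. Kdm1a, the gene of LSD1, is no check of the labels because the drug acts on the protein, and its RNA was at 92.8 ± 5.45 CPM with vehicle and 87.1 ± 3.54 CPM with GSK (n = 3, log2 change -0.092, adjusted p = 0.22, edgeR).

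The glycolysis genes were mostly lower in GSK. In edgeR (quasi-likelihood test, p adjusted over all 11698 genes), 24 of the 34 fell at an adjusted p under 0.05, 2 rose and 8 did not pass. Of all genes tested, 15.5% were lower and 16.6% higher at the same threshold. The 24 amount to 70.6% of the list. The median log2 fold change of the 34 was -0.26, with 29 of them below 0, against -0.0039 for all genes tested. With a fold change over 1.5 added, 6 were lower (Slc2a3, Ldhb, Aldoc, Gys1, Gbe1 and Pdk1) and 1 was higher (Adpgk), where 4.09% of all genes were lower and 2.22% higher. Nearest that threshold were Pdk1, inside it at a log2 fold change of -0.64, and Slc16a3, outside it at -0.51. When the test was set against a 1.5-fold change instead of against 0, only Slc2a3 remained lower (adjusted p = 3.4e-04, edgeR) and no member remained higher.

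Of the 34 genes, 24 had every GSK sample below every Veh sample and 2 had every GSK sample above. Of all genes tested, 23.0% and 23.7% showed such separation. The separated members were the same genes that passed the test, so their separation largely follows from the call and adds no further support. The GSK samples were not alike. GSK replicate 3 was the lowest of all 6 samples in 18 of the 24 lower genes and GSK replicate 2 in the remaining 6, while GSK replicate 1 was the highest of its group in 18. Relative to the Veh mean, the median log2 difference over the 34 genes was 0.019, -0.033 and 0.0076 in Veh replicates 1 to 3, and -0.22, -0.26 and -0.33 in GSK replicates 1 to 3.

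The 34 genes together took 2.1%, 2.07% and 2.1% of all counts in Veh (2.09% ± 0.018, SD, n = 3) and 1.80%, 1.71% and 1.67% in GSK (1.73% ± 0.067). The GSK shares were all below the Veh shares, a separation for which the exact permutation test of 3 against 3 samples cannot give a two-sided p below 0.1. Pkm, Eno1, Ldha, Aldoa and Pgk1 supplied 67.7% to 69.7% of these counts in each sample. RNA was measured in bulk, so fewer cells expressing a gene and less RNA per cell cannot be told apart.

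**Figure D1:**
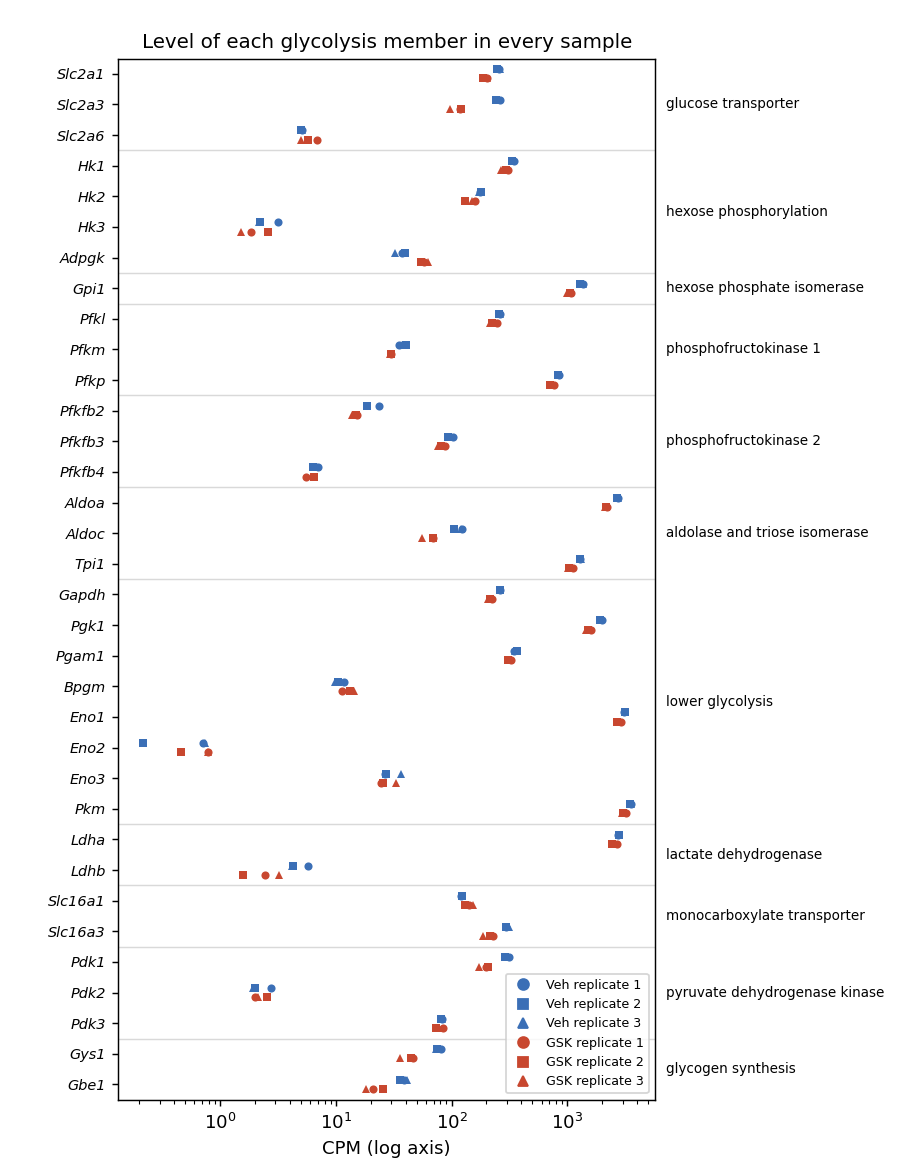
Level of each of the 34 genes in each of the 6 samples, in CPM on a logarithmic axis, grouped by step of the pathway (blue, Veh; red, GSK; symbols mark the replicate). The 24 lower genes show every red symbol left of every blue one, from Pkm, at 2981 CPM or more in every sample, to Ldhb, at 5.71 CPM or less, while Adpgk and Slc16a1 show the opposite order.

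**Figure D2:**
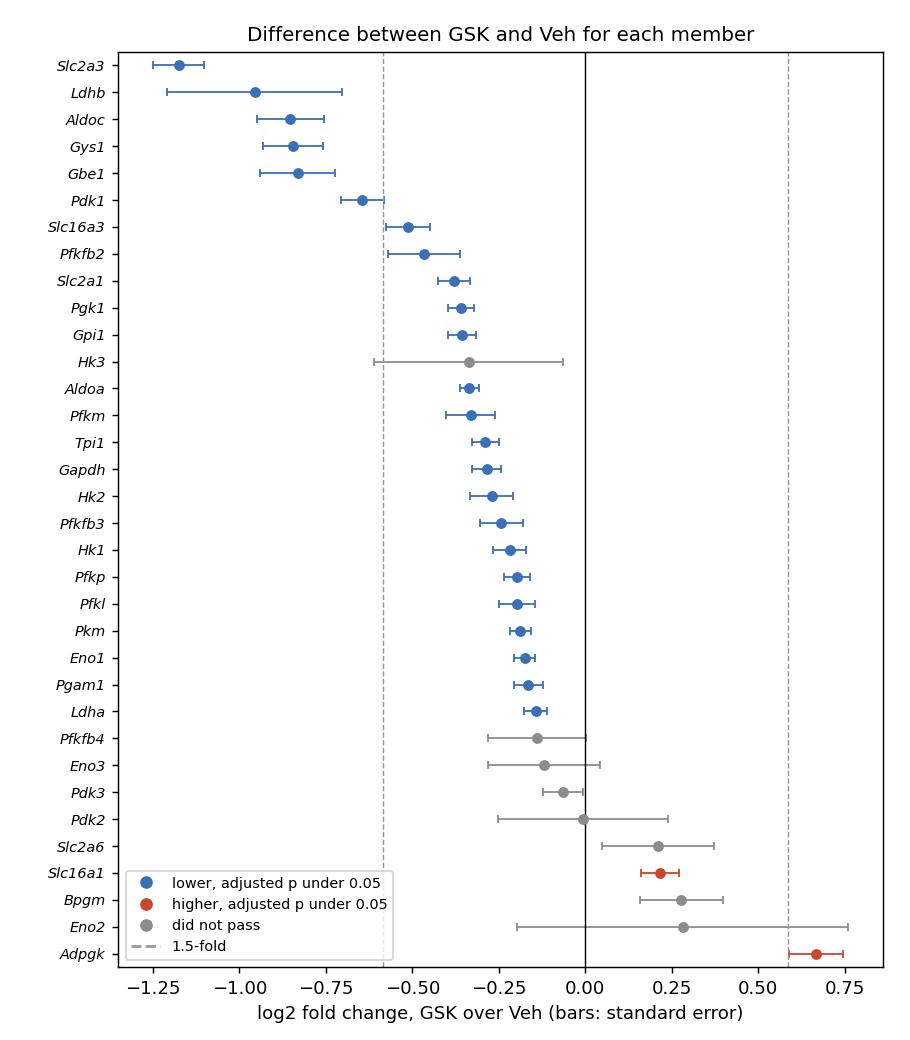
Log2 fold change of GSK over Veh for each of the 34 genes, sorted, with bars of 1 standard error and dashed lines at 1.5-fold. Slc2a3 lies lowest at -1.18 and Adpgk highest at 0.67, and most of the lower genes lie between -0.51 and -0.14, inside the dashed lines.

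Several of these genes are textbook targets of hypoxia-inducible factors, which bind a short core, ACGTG or GCGTG, on either strand (read on the other strand as CACGT or CACGC). Promoter windows of RefSeq (GRCm38.p6, 250 bases before to 50 after each start) matched 33 of the 34 genes, all but Slc2a3. The core was found in 37 of their 49 windows (75.5%), in 61.7% of the windows of tested genes and in 43.8% of all 32851 windows. Counted by direction, 29 of 38 windows of the lower genes (76.3%) and 8 of 11 windows of the others (72.7%) held it. The palindrome CACGTG was counted once per strand. A match is a run of letters, not a shown binding site.

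Stretches from the promoters of 8 of these genes show cores, in capitals, before genes that fell and before both genes that rose, and genes that fell with no core in the stretch. The windows of Hk2, Slc2a1, Pdk1, Adpgk and Slc16a1 hold further cores that are not wholly inside these stretches, and a core of Slc2a1 is cut by the end of its stretch. The stretches run 5′ to 3′ on the strand of the gene, all on the plus strand except Hk2. They are 129 to 150 bases long, come from the RefSeq windows and hold no exon annotated in GENCODE M21. Those of Pgk1, Hk2, Slc2a1 and Pdk1, genes that fell, cover chrX:106186950-106187099, chr6:82774455-82774604, chr4:119108561-119108710 and chr2:71873065-71873214.
Pgk1: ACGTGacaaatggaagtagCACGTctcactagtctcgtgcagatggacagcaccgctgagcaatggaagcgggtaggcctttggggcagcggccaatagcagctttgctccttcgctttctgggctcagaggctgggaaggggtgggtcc
Hk2: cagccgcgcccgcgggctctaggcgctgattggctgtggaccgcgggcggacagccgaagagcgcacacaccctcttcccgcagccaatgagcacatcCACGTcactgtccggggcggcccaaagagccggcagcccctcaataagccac
Slc2a1: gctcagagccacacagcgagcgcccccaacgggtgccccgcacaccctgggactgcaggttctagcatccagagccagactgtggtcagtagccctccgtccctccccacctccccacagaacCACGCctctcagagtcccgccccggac
Pdk1: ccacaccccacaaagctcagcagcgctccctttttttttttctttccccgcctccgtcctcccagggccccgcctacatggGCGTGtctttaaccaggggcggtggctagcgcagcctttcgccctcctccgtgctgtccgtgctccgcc
Those of Gys1 and Gbe1, which also fell, cover chr7:45434710-45434838 and chr16:70313799-70313948 and hold no core. That of Gys1 lies within an intron of Ruvbl2, a gene on the other strand.
Gys1: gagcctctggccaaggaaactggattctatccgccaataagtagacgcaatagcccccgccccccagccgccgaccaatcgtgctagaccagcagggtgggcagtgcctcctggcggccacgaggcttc
Gbe1: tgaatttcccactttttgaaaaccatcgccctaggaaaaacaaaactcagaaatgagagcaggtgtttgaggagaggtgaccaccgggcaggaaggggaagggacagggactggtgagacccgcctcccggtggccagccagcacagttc
Those of Adpgk and Slc16a1, which rose, cover chr9:59291408-59291557 and chr3:104638514-104638663.
Adpgk: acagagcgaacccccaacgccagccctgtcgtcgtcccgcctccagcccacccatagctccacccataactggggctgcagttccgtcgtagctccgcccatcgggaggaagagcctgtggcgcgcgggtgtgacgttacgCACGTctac
Slc16a1: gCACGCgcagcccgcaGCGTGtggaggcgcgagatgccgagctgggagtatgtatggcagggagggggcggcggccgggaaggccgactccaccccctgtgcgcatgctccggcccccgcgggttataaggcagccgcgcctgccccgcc

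Glucose enters T cells through facilitative transporters, and both main ones fell. Slc2a3 (chr6:122727809-122802363), which encodes the high-affinity transporter GLUT3, was at 262, 241 and 254 CPM with vehicle and 118, 120.2 and 97.1 CPM with GSK. All GSK samples were far below all Veh samples, and the mean fell by 55.7% (log2 change -1.18 with an SE of 0.074, adjusted p = 3.6e-06, edgeR). Its log2 change was the lowest of the 34. SE stands for the standard error of the log2 fold change throughout. Slc2a1 (chr4:119108745-119137330), which encodes GLUT1, the transporter that T cells raise on activation, was at 256, 249 and 264 CPM with vehicle and 203, 186 and 201 CPM with GSK. The groups did not overlap, and the mean fell by 23.2% (log2 change -0.38 with an SE of 0.047, adjusted p = 9.0e-05). Slc2a6, a transporter known from activated macrophages, was low at 5.08 ± 0.058 CPM with vehicle and 5.88 ± 0.941 CPM with GSK (n = 3), with overlapping groups (log2 change 0.21, adjusted p = 0.35).

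The mixture of transporters differed between the groups. On the scale of CPM per kb of exon, Slc2a3 made up 44% ± 0.861 in Veh and 30.9% ± 3.02 in GSK of the sum of the 3 transporters and Slc2a1 54.3% ± 0.833 in Veh and 66.1% ± 3.24 in GSK (SD, n = 3). The ratio of Slc2a3 to Slc2a1 per kb was 0.844, 0.798 and 0.792 in Veh and 0.476, 0.533 and 0.398 in GSK. Every GSK ratio was below every Veh ratio. Such shares and ratios are given as descriptions, without a test. Per kb, Slc2a1 ranked above Slc2a3 in all 6 samples, although in CPM Slc2a3 was the higher in Veh replicate 1 (262 against 256 CPM).

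Inside the cell, hexokinases phosphorylate glucose with ATP and so trap it, while the ADP-dependent glucokinase encoded by Adpgk does so with ADP. These enzymes moved in opposite directions. Hk1, the most abundant of them per kb, was at 347, 332 and 331 CPM with vehicle and 305, 294 and 269 CPM with GSK. All GSK samples were lower (log2 change -0.22 with an SE of 0.049, adjusted p = 0.0046). Hk2, the inducible isoform, was at 176 ± 3.79 CPM with vehicle and 146 ± 13.9 CPM with GSK and also fell (log2 change -0.27 with an SE of 0.061, adjusted p = 0.0055). Hk3 was low, at 2.5 ± 0.565 CPM with vehicle and 1.98 ± 0.548 CPM with GSK, and its groups overlapped (log2 change -0.34, adjusted p = 0.37).

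Adpgk (chr9:59291572-59316200) was the only one of the 34 to rise past 1.5-fold. It was at 37.5, 39.7 and 32.5 CPM with vehicle and 57.7, 54.2 and 62.4 CPM with GSK. The lowest GSK sample lay well above the highest Veh sample, and the mean rose by 58.8% (log2 change 0.67 with an SE of 0.079, adjusted p = 8.4e-05, edgeR). Its share of the glucose-phosphorylating enzymes, per kb, was 12.7% ± 1.01 in Veh and 21.4% ± 1.75 in GSK, while Hk1 stayed the largest part in every sample. The ratio of Hk2 to Hk1 per kb overlapped between groups, at 0.437, 0.469 and 0.452 in Veh and 0.448, 0.385 and 0.479 in GSK.

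The next steps turn glucose 6-phosphate into fructose 1,6-bisphosphate. Gpi1, the isomerase, was at 1374, 1276 and 1359 CPM with vehicle and 1077, 1061 and 994 CPM with GSK. It fell in every GSK sample (log2 change -0.36 with an SE of 0.039, adjusted p = 4.5e-05), and it shares 12.3% of its exon bases with the predicted gene Gm26762 on the other strand. Phosphofructokinase 1 then commits the sugar to glycolysis, and all 3 of its subunit genes fell. Pfkp, the platelet-type subunit and the highest of the 3 per kb, was at 848, 826 and 837 CPM with vehicle and 763, 716 and 711 CPM with GSK. Its groups were narrow and separate (log2 change -0.20 with an SE of 0.037, adjusted p = 0.0015). Pfkl, the liver-type subunit, had 261 ± 5.11 CPM with vehicle and 228 ± 16.9 CPM with GSK (log2 change -0.20, adjusted p = 0.012). Pfkm, the muscle-type subunit, had 37.6 ± 2.77 CPM with vehicle and 29.9 ± 0.443 CPM with GSK (log2 change -0.33, adjusted p = 0.0036).

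The shares of the subunits overlapped between the groups. Per kb, Pfkp took 70.2% ± 0.236 in Veh and 70.5% ± 0.548 in GSK of the sum of its 3 subunits, and Pfkl 25.2% ± 0.24 in Veh and 25.3% ± 0.689 in GSK. Pfkp shares 12.9% of its transcript windows of 150 bases with Pitrm1 on the other strand, and Pitrm1 was higher in GSK (log2 change 0.27, adjusted p = 0.025, edgeR).

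Fructose 2,6-bisphosphate, made and removed by the bifunctional enzymes of the Pfkfb genes, is the strongest known activator of phosphofructokinase 1. Pfkfb3, the isoform whose kinase activity far exceeds its phosphatase activity and the highest of the 3 per kb, was at 103, 93.2 and 93.3 CPM with vehicle and 87.7, 81.2 and 75.7 CPM with GSK. All GSK samples were lower (log2 change -0.24 with an SE of 0.062, adjusted p = 0.0098), although without Veh replicate 1 the adjusted p was 0.053. Pfkfb2 had 20.2 ± 2.78 CPM with vehicle and 14.6 ± 0.646 CPM with GSK (log2 change -0.47 with an SE of 0.10, adjusted p = 0.0046), and 27.8% of its exon bases overlap Yod1 and the predicted gene Gm29427. Pfkfb4 was low, at 6.78 ± 0.395 CPM with vehicle and 6.15 ± 0.556 CPM with GSK, with overlapping groups (log2 change -0.14, adjusted p = 0.48).

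Aldolase splits the 6-carbon sugar into 3-carbon sugars, and the triose phosphate isomerase Tpi1 interconverts them. All 3 genes of this step fell. Aldoa, the main aldolase, was at 2756, 2702 and 2744 CPM with vehicle and 2198, 2179 and 2124 CPM with GSK. Its replicates were tight and the groups lay far apart relative to their spread (log2 change -0.34 with an SE of 0.027, adjusted p = 3.8e-06). Aldoc (chr11:78323073-78327781), the isoform best known from brain, was at 124, 104 and 121 CPM with vehicle and 68.7, 69.1 and 55.3 CPM with GSK. It fell by 44.6%, where Aldoa fell by 20.7% (log2 change -0.85 with an SE of 0.096, adjusted p = 3.3e-04 for Aldoc). Aldoc supplied 1.72% ± 0.141 in Veh and 1.19% ± 0.121 in GSK of the sum of the 3 genes per kb, with every GSK share below every Veh share. Tpi1 had 1293 ± 19.4 CPM with vehicle and 1058 ± 56.1 CPM with GSK (log2 change -0.29 with an SE of 0.038, adjusted p = 1.6e-04).

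The lower part of the pathway, from glyceraldehyde 3-phosphate to pyruvate, makes its ATP. Of its 8 genes, 5 fell, by modest amounts, and 3 did not pass. Pkm, the pyruvate kinase that makes pyruvate in T cells and the highest of the 8 per kb, was at 3517, 3478 and 3536 CPM with vehicle and 3213, 3055 and 2981 CPM with GSK. The groups were separate, with GSK replicate 3 lowest (log2 change -0.19 with an SE of 0.03, adjusted p = 5.9e-04), and 12.9% of its exon bases overlap the predicted gene Gm49759. Pgk1, the first ATP-making kinase of the pathway, had 1943 ± 38.9 CPM with vehicle and 1514 ± 75.9 CPM with GSK and the largest decrease of the step (log2 change -0.36 with an SE of 0.037, adjusted p = 2.5e-05). Gapdh, often used as a loading control, had 262 ± 1.54 CPM with vehicle and 215 ± 7.85 CPM with GSK and fell by 17.9% (log2 change -0.29 with an SE of 0.042, adjusted p = 3.2e-04). Eno1, the main enolase, had 3130.2 ± 28.1 CPM with vehicle and 2772 ± 106 CPM with GSK (log2 change -0.18, adjusted p = 9.6e-04). Pgam1, the phosphoglycerate mutase, had 357 ± 11 CPM with vehicle and 319 ± 10.3 CPM with GSK (log2 change -0.16, adjusted p = 0.0092).

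Its 3 least abundant genes did not pass. Bpgm, which makes 2,3-bisphosphoglycerate and serves mainly red cells, had 10.7 ± 1.01 CPM with vehicle and 13 ± 1.53 CPM with GSK, with overlapping groups and a higher mean in GSK (log2 change 0.28 with an SE of 0.12, adjusted p = 0.094). Eno3, the muscle enolase, had 30.2 ± 5.72 CPM with vehicle and 27.8 ± 4.72 CPM with GSK (log2 change -0.12, adjusted p = 0.62). Eno2, the neuronal enolase, had 13, 4 and 14 reads in Veh and 15, 9 and 15 reads in GSK, and a difference of this size was not detectable at this depth (log2 change 0.28 with an SE of 0.48, adjusted p = 0.69).

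Several of these genes have near-identical copies in the genome. Of the transcript windows of 150 bases, the read length, 66.1% of those of Pgk1 also occur in 2 other genes, 49.7% of those of Gapdh in 49, 37.9% of those of Pgam1 in 1 and 31.9% of those of Eno1 in 2. How reads with several matches were counted was not given in the sources used here, so the levels of these genes are uncertain. Per kb, Gapdh was at 175 ± 1.03 CPM per kb in Veh and 144 ± 5.25 in GSK, below Pgk1 at 1065 ± 21.3 CPM per kb in Veh and 829.9 ± 41.6 in GSK. One such copy of Eno1, Eno1b, was also lower in GSK (log2 change -0.26, adjusted p = 0.010, edgeR).

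Lactate dehydrogenase turns pyruvate into lactate and restores the NAD+ that glycolysis needs. Over all 6 samples Ldha had the highest mean of the 34 per kb, at 1476 ± 15.1 CPM per kb in Veh and 1337 ± 62.4 in GSK (SD, n = 3), although with vehicle Aldoa was slightly higher, at 1499 ± 15.7 CPM per kb. In CPM it was at 2763, 2812 and 2813 CPM with vehicle and 2662, 2429.8 and 2509 CPM with GSK. The highest GSK sample was close to the lowest Veh sample without reaching it, and the mean fell by 9.4%, the smallest decrease that passed (log2 change -0.14 with an SE of 0.033, adjusted p = 0.006, edgeR). Ldhb (chr6:142490249-142507957), whose subunit favours the reverse reaction in oxidative tissues, was rare, at 5.71, 4.24 and 4.15 CPM with vehicle and 2.47, 1.57 and 3.23 CPM with GSK. All GSK samples were lower (log2 change -0.96 with an SE of 0.25, adjusted p = 0.012), but the counts behind it were 105, 79 and 79 reads in Veh and 47, 31 and 62 reads in GSK, and without Veh replicate 1 the adjusted p was 0.059. Ldhb made up 0.244% ± 0.0481 in Veh and 0.138% ± 0.0467 in GSK of the sum of both genes per kb.

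Lactate leaves the cell through monocarboxylate transporters, and their 2 genes moved in opposite directions. Slc16a3, which encodes MCT4, the exporter typical of highly glycolytic cells, was at 295, 293 and 313 CPM with vehicle and 228, 216 and 187 CPM with GSK. It fell in every GSK sample and most in replicate 3 (log2 change -0.51 with an SE of 0.064, adjusted p = 2.0e-04). Slc16a1, which encodes MCT1, a transporter that moves lactate in either direction, had 122 ± 1.97 CPM with vehicle and 142 ± 10.8 CPM with GSK and was higher in each GSK sample than in any Veh sample (log2 change 0.22 with an SE of 0.055, adjusted p = 0.0094, edgeR). Slc16a1 went from 29.1% ± 0.747 of their sum per kb in Veh to 40.5% ± 4.0 in GSK. The ratio of Slc16a3 to Slc16a1 per kb was 2.45, 2.35 and 2.53 in Veh and 1.60, 1.63 and 1.22 in GSK, so that Slc16a3 remained the higher in all samples. Bsg, the chaperone that both transporters need at the cell surface, was lower (411 ± 12.5 CPM with vehicle and 319 ± 13.6 CPM with GSK, log2 change -0.37 with an SE of 0.043, adjusted p = 6.8e-05). Bsg was named after its values were seen.

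Pyruvate dehydrogenase kinases switch off the enzyme that sends pyruvate into the mitochondrial citric acid cycle. Pdk1 (chr2:71873215-71903858), a known hypoxia-responsive kinase, was at 314, 292 and 301 CPM with vehicle and 200.3, 207 and 173 CPM with GSK. It fell by 36%, with the highest GSK sample far below the lowest Veh sample (log2 change -0.64 with an SE of 0.061, adjusted p = 2.5e-05, edgeR). Pdk3 was nearly level, at 82.4 ± 1.07 CPM with vehicle and 78.8 ± 6.01 CPM with GSK, and its groups overlapped (log2 change -0.065 with an SE of 0.058, adjusted p = 0.42). Pdk2 was low and its groups overlapped, at 2.23 ± 0.468 CPM with vehicle and 2.22 ± 0.277 CPM with GSK (log2 change -0.0064, adjusted p = 0.99). Per kb, Pdk1 was above Pdk3 in all Veh samples, at ratios of 1.55, 1.46 and 1.47. In GSK the ratios were 0.960, 1.15 and 0.905, so that Pdk1 was below Pdk3 in replicates 1 and 3 and above it in replicate 2. Its share of the 3 kinases was 59.3% ± 0.655 in Veh and 49.4% ± 3.07 in GSK.

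Glycogen synthase, encoded by Gys1, and the branching enzyme, encoded by Gbe1, divert glucose into glycogen, and both fell past 1.5-fold. Gys1 (chr7:45434839-45456617) was at 81.4, 74.3 and 73.4 CPM with vehicle and 46.7, 44.6 and 36.1 CPM with GSK. The groups were far apart and the mean fell by 44.3% (log2 change -0.85 with an SE of 0.086, adjusted p = 5.9e-05, edgeR). It shares 8.43% of its exon bases with Ruvbl2 on the other strand, and Ruvbl2 was higher in GSK (log2 change 0.21, adjusted p = 0.030, edgeR). Gbe1 (chr16:70313949-70569720) was at 39.1, 35.8 and 40.8 CPM with vehicle and 20.8, 25.8 and 18.4 CPM with GSK. It fell by 43.8%, with the lowest value again in GSK replicate 3 (log2 change -0.83 with an SE of 0.11, adjusted p = 2.6e-04). Gys1 held 69.7% ± 1.79 in Veh and 69.5% ± 2.77 in GSK of their sum per kb, and these shares overlapped.

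**Figure D3:**
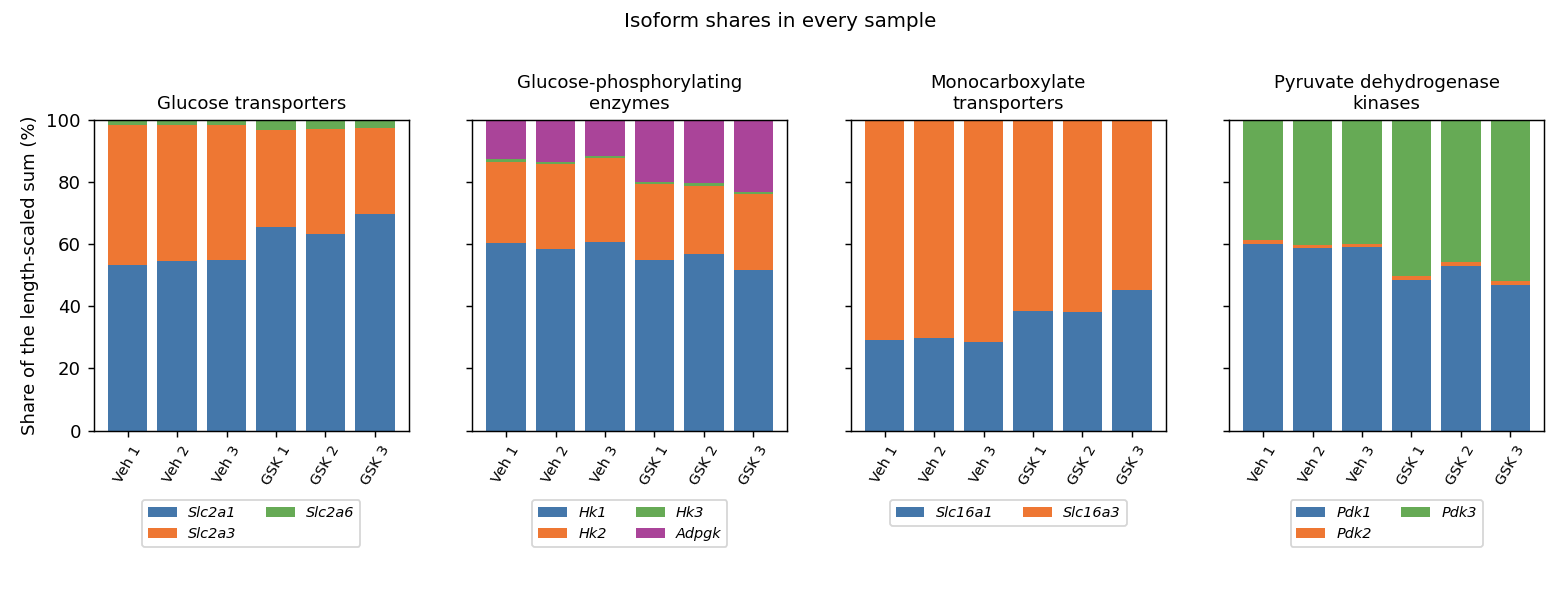
Share of each isoform in the sum of its family, in percent of CPM per kb of exon, in each of the 6 samples (bars stack to 100%). Slc2a3, Slc16a3 and Pdk1 take a smaller share in every GSK sample than in any Veh sample, and Adpgk, Slc16a1 and Pdk3 a larger one.

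The 18 genes that fell by less than 1.5-fold had log2 fold changes from -0.51 to -0.14, and their standard errors ran from 0.027 to 0.10. The 8 genes that did not pass included 3 with means under 5 CPM in both groups, with standard errors from 0.25 to 0.48, so a change of the size seen in Ldha was not detectable for them at this depth.

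The deposited annotation assigned 18 of the 34 genes to a pathway term for HIF-1 signaling. Of these, 15 fell (83.3%) and 0 rose in edgeR, with 0 higher also at an unadjusted p under 0.05 and in DESeq2. Their median log2 fold change was -0.28. Of the 16 members without the term, 9 fell (56.25%) and 2 rose (12.5%), with a median of -0.18. Of all genes tested, 15.5% fell and 16.6% rose. Among the 68 tested genes with the term that are not members, 19 fell (27.9%) and 14 rose (20.6%), and their median was -0.038. Of the 6 members lower past 1.5-fold, Ldhb, Aldoc and Pdk1 carry the term and Slc2a3, Gys1 and Gbe1 do not. The term is an annotation, and whether HIF-1 acts on any of these genes was not tested. For the annotated term of glycolysis and gluconeogenesis, 16 of 21 members fell (76.2%) and 1 rose (4.76%). Of its 29 other tested genes, 5 fell (17.2%) and 1 rose (3.45%).

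Other genes around the pathway were described from 8 lists holding 114 genes, of which 92 were tested. Of these, 16 were lower (17.4%) and 20 higher (21.7%) in edgeR, where 15.5% and 16.6% of all genes were. The count of 20 was 11 without Veh replicate 1 and 12 without GSK replicate 1. Their median log2 fold change was 0.023, beside -0.26 for the 34 genes and -0.0039 for all genes tested. Like the 34, these lists were written with earlier results known. Beside 15.5% of all genes, the share lower was 33.3% in gluconeogenesis, 35.7% in glycogen genes and 18.2% in branches from glycolysis. It was 9.09% in isoforms and transporters and 0% in pentose phosphate, pyruvate entry and citric acid cycle lists. Beside 16.6%, the share higher was 37.5% in pentose phosphate, 45.5% in branches and 47.1% in the citric acid cycle. It was 9.09% in isoforms and transporters and 0% in gluconeogenesis, glycogen and pyruvate entry. Of 11 tested isoforms and transporters outside the list of 34, Bsg fell and Tigar rose, while 2 fell without Veh replicate 1, and 3 fell and 2 rose without GSK replicate 2. Tigar encodes a phosphatase that lowers fructose 2,6-bisphosphate, and it was at 21.2, 24.5 and 21.3 CPM with vehicle and 35.9, 32.9 and 37.9 CPM with GSK. Every GSK sample was higher (log2 change 0.67 with an SE of 0.083, adjusted p = 9.1e-05, edgeR).

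In gluconeogenesis, the reverse path, 2 of 6 tested genes fell and 0 rose (edgeR, with 0 higher at an unadjusted p under 0.05 and in DESeq2). Pck2, the mitochondrial enzyme that makes phosphoenolpyruvate, was at 49.2, 55.8 and 63.6 CPM with vehicle and 33.6, 34.5 and 32.3 CPM with GSK. Its GSK samples were tight and below all Veh samples (log2 change -0.75 with an SE of 0.085, adjusted p = 6.8e-05, edgeR). Slc37a4, the transporter of glucose 6-phosphate into the endoplasmic reticulum, had 61.4 ± 3.04 CPM with vehicle and 38.5 ± 3.27 CPM with GSK (log2 change -0.67 with an SE of 0.07, adjusted p = 2.8e-05).

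Of 14 tested glycogen genes beyond Gys1 and Gbe1, 5 fell and 0 rose in edgeR, with 1 higher at an unadjusted p under 0.05 and 0 in DESeq2, and the median log2 fold change was -0.11. Pygl, Pgm2l1, Pgm1 and Phka2 were among the 5, and all but Pygl were named after their values were seen. Pygl, the liver-type glycogen phosphorylase that releases glucose units, was at 46.5, 34.5 and 42.8 CPM with vehicle and 12.7, 13.3 and 7.87 CPM with GSK. Its GSK samples were all far below its Veh samples, and the mean fell by 72.6% (log2 change -1.87 with an SE of 0.21, adjusted p = 0.0011). Pgm1, the phosphoglucomutase, had a log2 fold change of -0.39, and 13.6% of the exon bases of Pgm1 overlap Itgb3bp.

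In the pentose phosphate pathway, which makes NADPH and ribose from glucose 6-phosphate, 0 of 8 tested genes fell and 3 rose in edgeR and in DESeq2, with 1 lower at an unadjusted p under 0.05. Pgd, Rpe and Rpia, named after their values were seen, had log2 fold changes of 0.17, 0.20 and 0.22, and 17.9% of the exon bases of Rpe overlap Kansl1l. Without Veh replicate 1 their adjusted p-values were 0.068, 0.055 and 0.075 in edgeR, so that no call was left, and without GSK replicate 1 only Rpe passed. Of 10 genes that carry pyruvate into mitochondria or oxidise it, 0 passed in either direction in edgeR or DESeq2, with 1 lower and 3 higher at an unadjusted p under 0.05, and their median log2 fold change was 0.11. In the citric acid cycle, which oxidises the acetyl groups made from pyruvate, 0 of 17 fell and 8 rose in edgeR and in DESeq2, with 0 lower at an unadjusted p under 0.05 and a median of 0.099. Dlst, a subunit of the 2-oxoglutarate dehydrogenase, was at 150.1 ± 3.25 CPM with vehicle and 202 ± 7.37 CPM with GSK (log2 change 0.43 with an SE of 0.044, adjusted p = 2.8e-05, edgeR). It was named after its values were seen. The count of 8 was 3 without Veh replicate 1, 5 without Veh replicate 2 and 5 without GSK replicate 1.

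Of 11 genes of branches that leave glycolysis toward glycerol, serine, sorbitol, fructose and hexosamine, 2 fell and 5 rose in edgeR, and 2 fell and 3 rose in DESeq2. Without Veh replicate 3 or GSK replicate 1, edgeR called 3 higher. The lower genes Khk and Psph, named after their values were seen, had adjusted p-values of 0.073 and 0.051 without GSK replicate 1, and 1 of them passed without Veh replicate 1, 2 or 3 or GSK replicate 2. Gpd1, which makes glycerol 3-phosphate, was the only one past 1.5-fold, at 0.925, 0.644 and 0.631 CPM with vehicle and 1.78, 1.52 and 1.77 CPM with GSK. Its GSK samples were all higher, from few reads (log2 change 1.20 with an SE of 0.31, adjusted p = 0.011, edgeR), and 13% of its exon bases overlap the predicted gene Gm16537. The mitochondrial Gpd2, named after its values were seen, had 57.1 ± 0.552 CPM with vehicle and 69 ± 2.35 CPM with GSK (log2 change 0.27, adjusted p = 0.0018).

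Among 15 regulators of the pathway, 6 fell (40%) and 3 rose (20%) in edgeR, where 15.5% and 16.6% of all genes did. Without GSK replicate 1 these counts were 5 and 2, and without Veh replicate 3 they were 5 and 3. Hif1a, the oxygen-regulated subunit of HIF-1, was slightly higher in GSK at 537 ± 13.6 CPM with vehicle and 597 ± 21.7 CPM with GSK (log2 change 0.15 with an SE of 0.039, adjusted p = 0.0095, edgeR), but without GSK replicate 1 its adjusted p was 0.064, and 8.11% of its exon bases overlap predicted genes. Egln3, a prolyl hydroxylase that marks HIF for destruction and is itself a known HIF target, was at 128, 123 and 149.6 CPM with vehicle and 73.4, 60.9 and 62 CPM with GSK. Its mean fell by 50.9%, with no overlap of the groups (log2 change -1.03 with an SE of 0.092, adjusted p = 8.9e-05). Epas1, the gene of HIF-2α, was low at 3.21, 3.38 and 4.41 CPM with vehicle and 1.31, 2.43 and 2.19 CPM with GSK and fell (log2 change -0.89 with an SE of 0.26, adjusted p = 0.019), with an adjusted p of 0.087 without Veh replicate 3 and 0.077 without GSK replicate 1. Txnip, which limits glucose uptake at the membrane and usually rises with intracellular glucose, was at 444, 376 and 405 CPM with vehicle and 264, 311 and 231 CPM with GSK. It fell in every GSK sample (log2 change -0.60 with an SE of 0.12, adjusted p = 0.016), and 19.4% of its exon bases overlap Gm15441. Myc was at 178 ± 15.9 CPM with vehicle and 199 ± 14.4 CPM with GSK and did not pass (log2 change 0.17 with an SE of 0.07, adjusted p = 0.091).

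**Figure D4:**
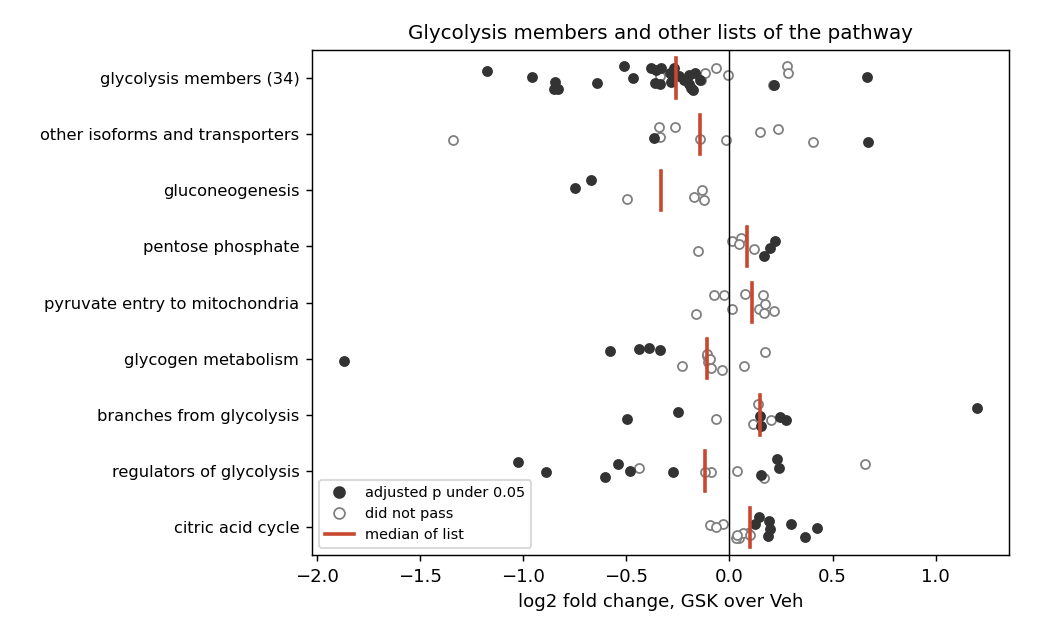
Log2 fold change of GSK over Veh for each tested gene of the 34 glycolysis genes and of 8 other lists, 1 point per gene (filled, adjusted p under 0.05; open, not passed; red bar, median of the list). The 34 genes sit mostly left of 0 with a median of -0.26, while the citric acid cycle and pentose phosphate genes are centred right of 0, with medians of 0.099 and 0.087.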

How the data were processed

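Poly(A)+ RNA of 6 samples (3 Veh, 3 GSK) was read as 150-base pairs from stranded libraries. Per the labels, the authors used Trimmomatic, HISAT2 (version 2.1.0, GRCm38), HTSeq (version 0.11.2), Cufflinks (version 2.2.1) and DESeq2 (version 1.22.2), and the deposited values are whole read counts per gene, not normalized. The annotation release and the strand setting of counting were not given in the sources used here, so genes that overlap others are uncertain.

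Groups were taken from the sample titles. edgeR (version 4.0.16, under R version 4.3.3) compared the groups on the counts by its robust quasi-likelihood test after TMM and filterByExpr, and p-values were adjusted by the Benjamini-Hochberg method over 11698 genes. CPM are counts scaled to the TMM-adjusted total of a sample, and CPM per kb divide by the union of exons of GENCODE M21. Standard errors came from the test statistic. The thresholds were an adjusted p under 0.05 and, as in the study, a fold change over 1.5. DESeq2 (version 1.42.0), other scalings and filters, and leaving out each sample were alternatives. On simulated counts of 11698 genes with 200 changed 2-fold, 95.5% were recovered with 3 false calls. The simulation gave every gene the same spread between replicates. Smaller changes, such as those of most of the lower members, were not simulated.

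The members and lists were chosen with earlier results of these data known. Members past 1.5-fold and the highest per kb of each step are given in every sample. Other genes are named if past 1.5-fold, with Hif1a and Myc, unless stated, and some genes counted in the wider lists are not reported here by name. The methods name separate mice without saying whether same-numbered Veh and GSK cultures share one. Positions and promoters are from RefSeq (GRCm38.p6).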

Additional observations from a re-analysis of the deposited data

How the results depend on the processing

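Under DESeq2, other size factors, total counts only, no filter or a stricter filter on low counts and a test that was not robust, 24 members remained lower and 2 higher, and 6 and 1 past 1.5-fold. The median of all genes moved by less than 0.1 on the log2 scale under every scaling. Tested against a 1.5-fold change, 1 member was lower and 0 were higher. With one sample left out, 22 to 24 members were lower and 5 to 6 past 1.5-fold, lowest without Veh replicate 1 in both and also without GSK replicate 3 in the latter. Of the 92 other genes tested, 20 were higher, and this count ranged from 11 (without Veh replicate 1) to 25, with 12 without GSK replicate 1. Among all genes, 1941 were higher, but 1288 without GSK replicate 1. Of the genes on branches from glycolysis, 5 were higher in edgeR and 3 in DESeq2. The causes of these shifts were not tested.

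Some low genes changed direction, none of them past the threshold. With one sample left out, the log2 fold change of Eno2 ran from -0.099 (without Veh replicate 2) to 0.55, that of Eno3 from -0.27 to 0.049 (without Veh replicate 3) and that of Pdk2 from -0.11 to 0.18 (without Veh replicate 1), and Pdk2 was at 4.95e-04 with the replicate block.

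Veh and GSK share replicate numbers, but once group means were removed, samples of equal number correlated at -0.052, -0.081 and 0.16 over genes, and 2 of 6 samples matched best with their own number, so the numbers were not taken as pairs. With the replicate number as a block, 24 members were lower and 2 higher, 6 and 1 past 1.5-fold, and 16 and 19 of the other genes were lower and higher. Myc then passed (adjusted p = 0.038, edgeR).

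At these totals, only large changes were detectable in genes of a few reads, such as Eno2 and Gpd1. RNA levels say nothing of enzyme amount, glucose uptake or lactate output, which were not measured in these samples.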
